A study of Mus musculus with 7 samples.

Results

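The mir-34 family of the mouse consists of the hairpins mmu-mir-34a, mmu-mir-34b and mmu-mir-34c, written below without the species prefix. All 3 were chosen by name, from 1222 mouse hairpins on which the tags were placed. Together they gave 5546 of 41039924 placed tags in HL-1 cells, an immortalised line of mouse atrial cardiomyocytes. The cells were followed over 4 days in culture. They did not beat on day 1 and were contracting by day 4. Time course 2 was sampled on days 1, 2, 3 and 4, and time course 1, an independent repeat of the culture, on days 1, 3 and 4, which gave 7 small RNA libraries. No treatment or change of genotype was applied, all libraries come from the same line, and every cell of it carries the SV40 large T antigen driven by the atrial natriuretic factor promoter. The number of placed tags per library ranged between 4931737 and 6877697.

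The miR-34 genes are among the best known targets of p53, the transcription factor that responds to DNA damage and other stress and can halt the cell cycle or start cell death. The mature miRNAs repress regulators of cell division and survival through a shared seed, the bases next to the 5′ end that pair with target mRNAs. In the heart, miR-34a is known for its increase with age and after injury, while miR-34b and miR-34c are best known from multiciliated epithelium and testis, where the miR-449 miRNAs carry the same seed. Large T antigen is known to bind p53.

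The sequences below show which arms share a seed, since that decides which tags count towards the same target set. They are the RefSeq mature sequences, written 5′ to 3′ with the seed (bases 2 to 8) in capitals. RefSeq entries of build GRCm38 matched all 3 hairpins and 5 of the 6 arms, all but miR-34c-5p.
mmu-miR-34a-5p: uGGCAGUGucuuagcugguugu
mmu-miR-34b-5p: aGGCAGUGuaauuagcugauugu
mmu-miR-449a-5p: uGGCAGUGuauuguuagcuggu
mmu-miR-449c-5p: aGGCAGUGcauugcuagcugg
mmu-miR-34a-3p: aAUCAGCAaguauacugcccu
mmu-miR-34b-3p: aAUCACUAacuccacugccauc
mmu-miR-34c-3p: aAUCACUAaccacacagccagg

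Of 1679 mature names in the RefSeq table, 4 carried the seed GGCAGUG, namely miR-34a-5p, miR-34b-5p, miR-449a-5p and miR-449c-5p. Among the tags, 370 of 389 on miR-34c-5p also read GGCAGTG at bases 2 to 8. The seed AUCACUA was carried by miR-34b-3p and miR-34c-3p alone among those names, and AUCAGCA by miR-34a-3p alone. Bases were compared position by position from the 5′ end, seed included and without gaps. In this count miR-34a-5p and miR-34b-5p had the same base at 11 of 22 positions, and miR-34a-5p and miR-449a-5p at 15 of 22. As miR-34b-5p is 23 nt long and miR-34a-5p 22 nt, their bases after the seed can fall out of register. The counts therefore do not rank how alike the sequences are when a gap is allowed. On the other arm, miR-34b-3p and miR-34c-3p shared 17 of 22 bases and miR-34b-3p and miR-34a-3p 15 of 21.

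The mir-34a hairpin lies at chr4:150068454-150068555 on the plus strand of GRCm38, with miR-34a-5p at chr4:150068473-150068494 and miR-34a-3p at chr4:150068517-150068537. Its last 17 bases overlap the single exon of Gm37795, an unverified gene model on the same strand. The mir-34b hairpin (chr9:51103562-51103645) and the mir-34c hairpin (chr9:51103034-51103110) lie on the minus strand of chromosome 9, with 451 bases between them. Both fall inside the span of Btg4, a protein-coding gene on the opposite strand, and no Btg4 exon overlaps either hairpin. The mature miR-34b-5p is at chr9:51103610-51103632, miR-34b-3p at chr9:51103574-51103595 and miR-34c-3p at chr9:51103044-51103065.

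mir-34a supplied most of the family. Over the 7 libraries it gave 4588 tags, 82.7% of the family, against 507 tags (9.14%) for mir-34c and 451 tags (8.13%) for mir-34b. The share of mir-34a lay between 77.8% (day 3 of time course 1) and 84.8% (day 4 of time course 1). Levels are given in CPM, the tags of an arm divided by all placed tags of the library and scaled to 1000000. As a whole the family reached 135 CPM, and in single libraries between 87.9 (day 3 of time course 1) and 195 (day 1 of time course 1).

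Ordered by mean level, the arms were miR-34a-5p with 106 ± 27.8 CPM (SD over 7 libraries), miR-34c-5p with 9.26 ± 2.89, miR-34b-3p with 6.92 ± 1.75, miR-34a-3p with 4.22 ± 1.03, miR-34b-5p with 3.95 ± 1.46 and miR-34c-3p with 2.87 ± 0.767. The ranges of miR-34a-5p and miR-34c-5p did not overlap, and every other pair of neighbours in this order overlapped. Inside the libraries, miR-34b-3p was above miR-34a-3p in 7 of 7. miR-34c-5p was above miR-34b-3p in 5 of 7 libraries, miR-34a-3p above miR-34b-5p in 4 of 7, and miR-34b-5p above miR-34c-3p in 5 of 7. miR-34a-5p ranked 202nd of 1150 arms with a tag, between 187th and 214th in single libraries, and the other 5 arms ranked between 366th and 512th by their summed tags. Levels of different miRNAs in such libraries also depend on how well each sequence is captured, which was not tested.

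miR-34a-5p, the form of miR-34a that targets mRNAs such as those of cyclin-dependent kinases and Bcl2, stayed within a narrow range in time course 2. It stood at 107 CPM on day 1, 104 on day 2, 101 on day 3 and 97.6 on day 4. In time course 1 it stood at 158 on day 1, 63.4 on day 3 and 110.1 on day 4. The highest and the lowest of the 7 values therefore both belong to time course 1, and they differ 2.49-fold. On day 3 the value in time course 2 was 1.60 times that in time course 1, and on day 1 it was 0.679 times that value.

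miR-34a-3p, the opposite strand of the same duplex, was counted 28, 15, 30 and 29 times on days 1, 2, 3 and 4 of time course 2, and 34, 27 and 13 times on days 1, 3 and 4 of time course 1. These counts correspond to 2.64 to 5.19 CPM. The lowest level was that of day 4 in time course 1 and the highest that of day 3 in time course 2.

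miR-34b-5p was counted 17, 22, 18 and 19 times on days 1 to 4 of time course 2, and 44, 16 and 26 times on days 1, 3 and 4 of time course 1. Its level was 2.73 to 6.47 CPM, with day 1 of the 2 time courses at the 2 ends of that range. miR-34b-3p was counted 57, 35, 46 and 45 times in time course 2 and 57, 28 and 21 times in time course 1, which is 4.26 to 9.17 CPM. Both day 1 values of miR-34b-3p (9.17 in time course 2 and 8.39 in time course 1) were above all 5 later values.

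miR-34c-5p was counted 49, 31, 54 and 69 times on days 1 to 4 of time course 2, and 102, 50 and 35 times on days 1, 3 and 4 of time course 1. The level of 15.01 CPM on day 1 of time course 1 was the highest, and the other 6 libraries lay between 6.13 and 10.03. miR-34c-3p, the rarest arm, was counted 23, 12, 21 and 18 times in time course 2 and 14, 11 and 18 times in time course 1, or 2.05 to 3.70 CPM. Its day 4 and day 1 values overlapped.

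**Figure D1:**
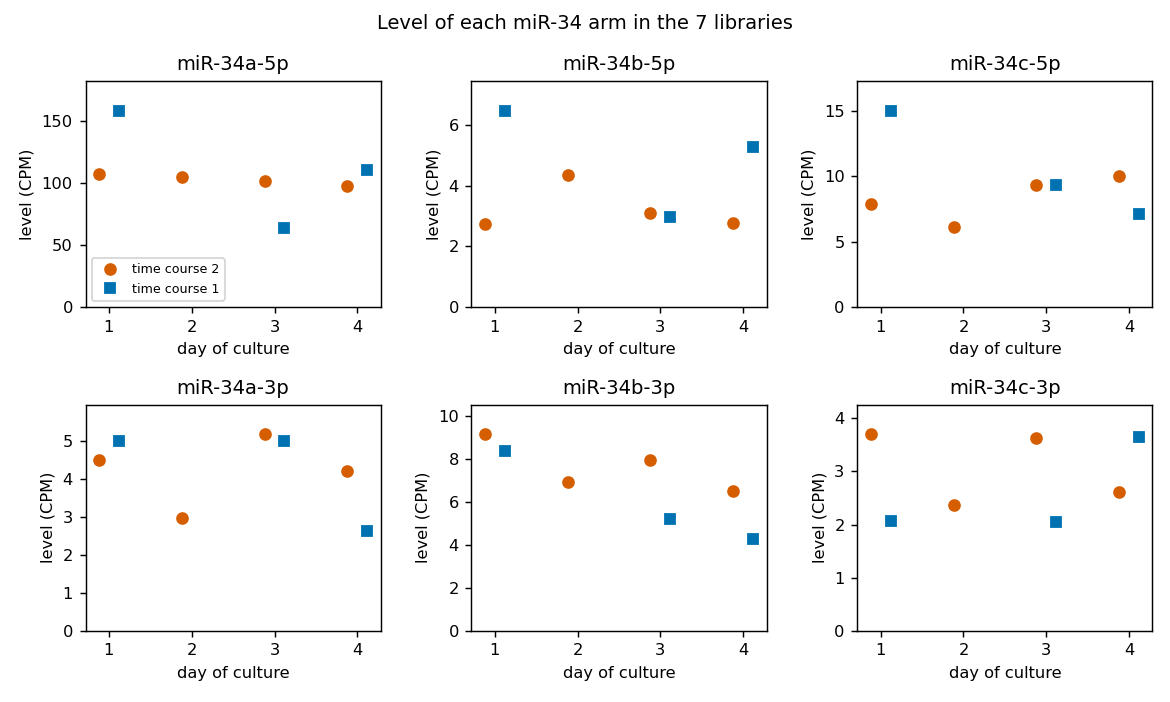
Level of each arm of the mir-34 family (CPM, y axis starting at 0 in each panel) against day of culture. Each point is a library, with circles for time course 2 and squares for time course 1; miR-34a-5p lay between 97.6 and 107 on all days of time course 2 and between 63.4 and 158 in time course 1.

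The first comparison asks whether any member changed as the cells began to beat. None of the 6 arms passed the test between day 4 and day 1, between day 3 and day 1 or between day 4 and day 3 (edgeR quasi-likelihood test on counts, Benjamini-Hochberg adjustment over 727 arms). Of all 727 arms, 0 (0%) passed in each of these 3 comparisons, with 76, 37 and 13 arms at an unadjusted p under 0.05. DESeq2 called 14, 9 and 0 arms, with 0 members among them. With time course as a term, since libraries of equal time course deviated together, edgeR called 22 arms (3.03%) for day 4 over day 1 and 11 arms (1.51%) for day 3 over day 1, again with 0 members among them. Tag counts are relative to the library total and come from whole cultures. A change in the bulk amount of miRNA was therefore not visible, and fewer expressing cells and less RNA per cell cannot be told apart.

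Between day 4 and day 1, miR-34a-5p stood at 97.6 CPM on day 4 of time course 2, against 107 on day 1, and at 110.1 on day 4 of time course 1, against 158 on day 1. The fitted log2 fold change was -0.25 (SE 0.40, edgeR adjusted p = 0.903). The largest fitted difference in this comparison was that of miR-34b-3p, with 6.54 CPM on day 4 against 9.17 on day 1 in time course 2, and 4.26 on day 4 against 8.39 on day 1 in time course 1. The day 4 and day 1 values did not overlap, yet its log2 fold change of -0.60 (SE 0.44, edgeR adjusted p = 0.685) did not pass the test. With time course as a term the value was -0.63 (adjusted p = 0.383).

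The remaining arms had fitted log2 fold changes between -0.37 (miR-34a-3p, SE 0.44) and 0.20 (miR-34c-3p, SE 0.56) for day 4 over day 1. The 2 time courses went different ways for miR-34c-5p, with day 4 at 1.27 times day 1 in time course 2 and at 0.473 times day 1 in time course 1. For miR-34c-3p, day 4 stood at 0.707 times day 1 in time course 2 but at 1.77 times day 1 in time course 1. In both arms the 2 cultures therefore differed in direction.

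For day 3 over day 1, miR-34a-5p had a log2 fold change of -0.56 (SE 0.40, edgeR adjusted p = 0.934). That value rested on time course 1, where day 3 reached 0.401 times the day 1 level, against 0.944 times in time course 2. Without day 3 of time course 1 the fitted value was -0.22, and without day 1 of time course 1 it was -0.25. Scaling to library totals moved the median of all arms by -0.12 on the log2 scale in this comparison and miR-34a-5p to -0.69. For day 4 over day 3, the 6 arms lay between -0.59 (miR-34a-3p, SE 0.44) and 0.36 (miR-34b-5p, SE 0.57).

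Between the time courses, edgeR called 60 of 727 arms (8.25%), 38 of them higher in time course 2 (5.23%) and 22 lower (3.03%), and 0 of the 6 members. Each time course is a single culture with its days as replicates, so these calls do not measure the spread between cultures. Without day 1 of time course 1 the calls numbered 10, without day 1 of time course 2 they numbered 6, without day 3 of time course 1 they numbered 17, and without day 3 of time course 2 they numbered 3. The largest fitted difference among the members was in miR-34b-5p, with a log2 fold change of -0.73 for time course 2 over time course 1 (SE 0.38, adjusted p = 0.262). Its partner strand miR-34b-3p had 0.45 (SE 0.31, adjusted p = 0.410). miR-34a-5p had -0.02 (SE 0.29), with both directions seen among the days.

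**Figure D2:**
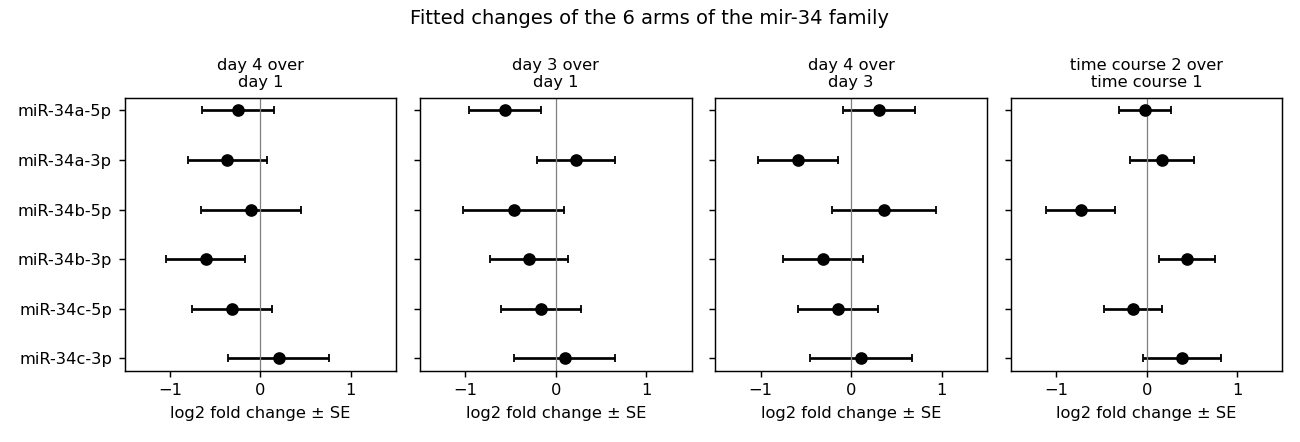
Fitted log2 fold changes of the 6 arms (points) with their SE (bars) in 4 panels, for day 4 over day 1, day 3 over day 1, day 4 over day 3 and time course 2 over time course 1. The vertical line marks no change; values run from -0.73 (miR-34b-5p between time courses) to 0.45 (miR-34b-3p between time courses), and none passed the test.

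The 3 hairpins differed in the share of tags on each arm. In mir-34a, 96.2% of tags were on the 5p arm (95% Wilson interval 95.6% to 96.7%), and 92.7% to 97.7% in single libraries. In mir-34c the 5p arm held 76.9% (73.1% to 80.4%), and 66.0% to 87.9% in single libraries. mir-34b was the exception, with 35.9% of tags on the 5p arm (31.6% to 40.4%) and 64.1% on the 3p arm. The 289 tags counted for miR-34b-3p include 14 that begin in the loop and 11 that begin 4 nt before its main start. With tags within 3 nt of the main starts only, the 5p arm held 37.0% (32.4% to 41.7%) and the 3p arm 63.0%. The pooled intervals of the 3 hairpins did not overlap, and they cover counting error only. Such shares also depend on how well each strand is captured, which was not tested.

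Among 329 hairpins with enough tags on both arms, 102 had 80% or more of their tags on the 5p arm, 108 had 80% or more on the 3p arm, and 119 (36.2%) lay between these bounds. mir-34b and mir-34c were among the 119, and mir-34a among the 102. In the predicted folds the first base of the 5p arm was unpaired and that of the 3p arm paired in all 3 hairpins. The predicted folding energies were -42.6 kcal/mol for mir-34a, -33.1 for mir-34b and -29.8 for mir-34c.

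Inside the libraries, miR-34b-3p exceeded miR-34b-5p in 6 of 7. The counts of miR-34b-3p and miR-34b-5p were 57 and 17 on day 1, 35 and 22 on day 2, 46 and 18 on day 3, and 45 and 19 on day 4 of time course 2. In time course 1 they were 57 and 44 on day 1, 28 and 16 on day 3, and 21 and 26 on day 4, the single library in which the 5p arm led. The mean log2 ratio was 0.83 ± 0.67 (SD, n = 7 libraries), with p = 0.0312 in a two-sided exact sign-flip permutation test and 0.0469 after adjustment over the 3 ratios tested. Leaving out any 1 library other than day 4 of time course 1 gave p = 0.0625, also by the exact permutation test. After adjustment over the 3 ratios the call was also lost with exact matches only and with tags within 3 nt of the main starts (0.0703 each by the exact permutation test). Within time course 2 the mean was 1.23 over 4 libraries and within time course 1 it was 0.29 over 3 libraries. Libraries of 1 time course share a culture and are not fully independent, so these p-values describe the libraries.

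No strand share of the family passed the test between the days. Between day 4 and day 1, the log2 ratio of 5p to 3p tags differed by 0.16 (SE 0.58) in mir-34a, by 0.58 (SE 0.79) in mir-34b and by -0.52 (SE 0.79) in mir-34c. limma called 0 of 329 hairpins (0%) in this comparison, with 35 at an unadjusted p under 0.05, and 15 with time course as a term, 0 of them mir-34 hairpins.

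**Figure D3:**
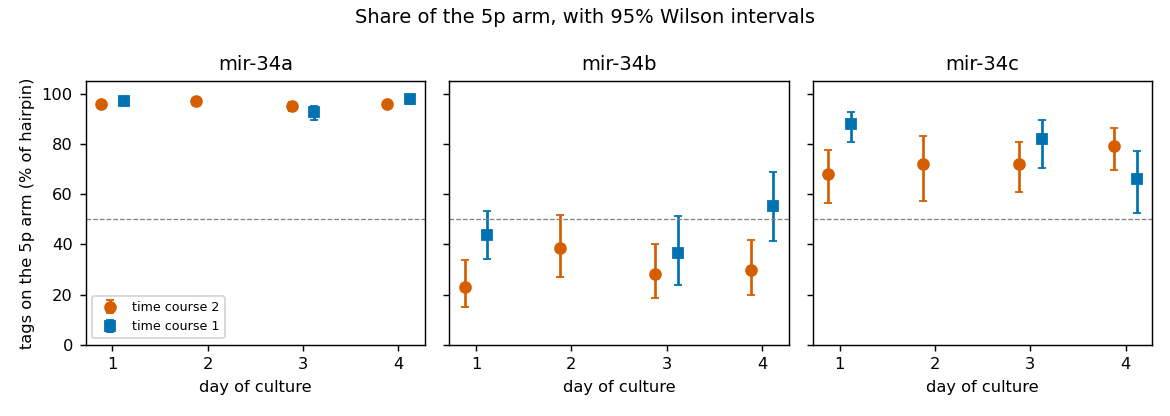
Share of each hairpin's tags on the 5p arm (percent) against day of culture, with 95% Wilson intervals as bars and a dashed line at 50%. Circles are time course 2 and squares time course 1; mir-34a stayed at 92.7% or above, mir-34c between 66.0% and 87.9%, and mir-34b below 50% in all libraries but day 4 of time course 1 (55.3%).

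Of the 2 main carriers of the family seed, miR-34a-5p exceeded miR-34c-5p in all 7 libraries. The counts of miR-34a-5p and miR-34c-5p were 668 and 49, 528 and 31, 586 and 54, and 671 and 69 on days 1 to 4 of time course 2. In time course 1 they were 1075 and 102 on day 1, 341 and 50 on day 3, and 543 and 35 on day 4. The ratio was thus 6.76-fold to 16.8-fold, with a mean log2 ratio of 3.52 ± 0.45 (SD, n = 7). The two-sided exact sign-flip permutation test gave p = 0.0156, the smallest that 7 libraries allow (0.0469 adjusted over the 3 ratios). Leaving out 1 library kept the mean between 3.42 and 3.64. The exact permutation p was then 0.0312 in each case, the smallest that the remaining libraries allow. Adjusted over the 3 ratios it was then 0.0469 to 0.0938, and past the threshold only without day 4 of time course 1. With p at its smallest in each case, these adjusted values differ only through the p-values of the other ratios. They therefore do not measure how stable this ratio is.

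mir-34c and mir-34b, whose hairpins are known to be cut from a common primary transcript, gave nearly equal numbers of tags. The counts of mir-34c and mir-34b were 72 and 74, 43 and 57, 75 and 64, and 87 and 64 on days 1 to 4 of time course 2, and 116 and 101, 61 and 44, and 53 and 47 on days 1, 3 and 4 of time course 1. mir-34c was ahead in 5 of 7 libraries. The mean log2 ratio of 0.15 ± 0.30 (SD, n = 7) was smaller than the spread between the libraries (exact sign-flip permutation test, p = 0.25), and single libraries ranged between 0.757-fold and 1.38-fold.

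**Figure D4:**
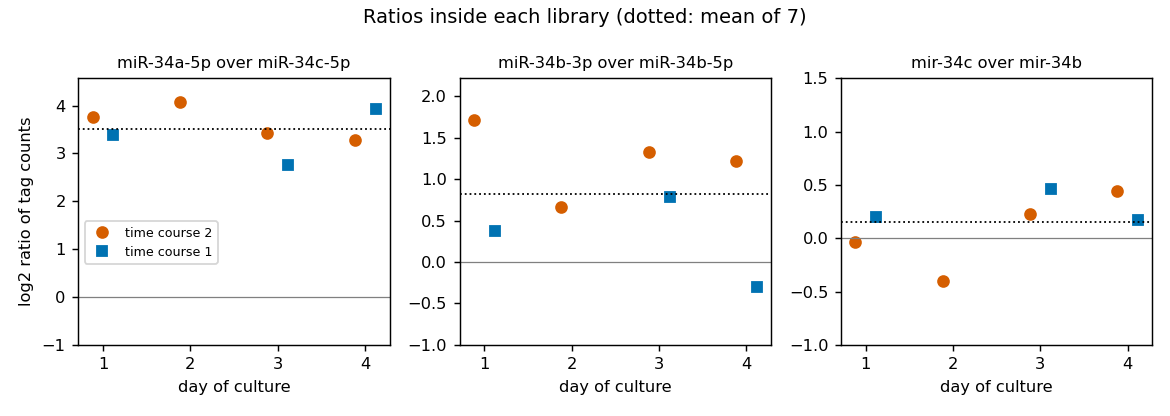
Log2 ratio of tag counts inside each library for miR-34a-5p over miR-34c-5p, miR-34b-3p over miR-34b-5p and mir-34c over mir-34b, against day of culture. Circles are time course 2, squares time course 1, the grey line marks equal counts and the dotted line the mean of 7 libraries (3.52, 0.83 and 0.15).

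The 5′ end sets the seed, so the starts of the tags were examined next. Tags of miR-34a-5p began at the annotated base in 4315 of 4412 cases (97.8%), and those of miR-34c-5p at their main start, the most frequent one, in 372 of 389 (95.6%). The other 4 arms were less uniform, with 69.9% for miR-34a-3p, 73.5% for miR-34c-3p, 76.5% for miR-34b-3p and 79.4% for miR-34b-5p. Counted within 3 nt of the main start, 1.71% of miR-34a-5p tags and 2.87% of miR-34c-5p tags began elsewhere, below the median of 4.34% over 450 other arms with at least 150 tags. The share was 15.3% for miR-34b-3p, 17.0% for miR-34b-5p, 17.3% for miR-34c-3p and 24.5% for miR-34a-3p. These 4 values were exceeded by 131, 124, 123 and 96 of the 450 arms.

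Each of these 4 arms had a main alternative start 1 nt away. The most frequent tags of both forms follow to show how the seed moves. For miR-34c-3p, 1 nt later, the forms of 22 nt and 23 nt tied at 6 tags each, and that of 22 nt is printed. Bases 2 to 8 of each tag are in capitals, and the bases are written with T as in the reads.
miR-34b-5p, main start: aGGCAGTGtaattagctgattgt
miR-34b-5p, 1 nt earlier: tAGGCAGTgtaattagctgattg
miR-34b-3p, main start: aATCACTAactccactgccatc
miR-34b-3p, 1 nt later: aTCACTAActccactgccatc
miR-34a-3p, main start: aATCAGCAagtatactgcccta
miR-34a-3p, 1 nt earlier: cAATCAGCaagtatactgcccta
miR-34c-3p, main start: aATCACTAaccacacagccagg
miR-34c-3p, 1 nt later: aTCACTAAccacacagccaggt

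The form of miR-34b-5p that begins 1 nt earlier made up 25 of the 153 tags within 3 nt of the main start (16.3%, 95% Wilson interval 11.3% to 23.0%). It carries AGGCAGT at bases 2 to 8, and none of the 1679 mature names in RefSeq has that seed. It made up 4 of 15, 4 of 22, 3 of 18 and 0 of 17 tags on days 1 to 4 of time course 2, where a count of 0 allows a share of up to 17.6%. In time course 1 it made up 9 of 41, 3 of 15 and 2 of 25 tags on days 1, 3 and 4. Both day 4 values (0% and 8%) were below the other 5 (16.7% to 26.7%), but the intervals overlapped, and no change was detectable at this depth.

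On the 3p arms, the second start of miR-34b-3p made up 13.4% of tags (35 of 261), that of miR-34c-3p 14.4% (15 of 104) and that of miR-34a-3p 22.1% (36 of 163). For miR-34b-3p and miR-34c-3p the second start is the same base of the shared stretch, 1 nt later. For miR-34a-3p it is 1 nt earlier, and its share ran from 6.25% (2 of 32 tags on day 1 of time course 1) to 36.0% (9 of 25 tags on day 4 of time course 2). In the 5p arms of mir-34a and mir-34c, the most frequent second starts reached only 1.03% and 2.35%.

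**Figure D5:**
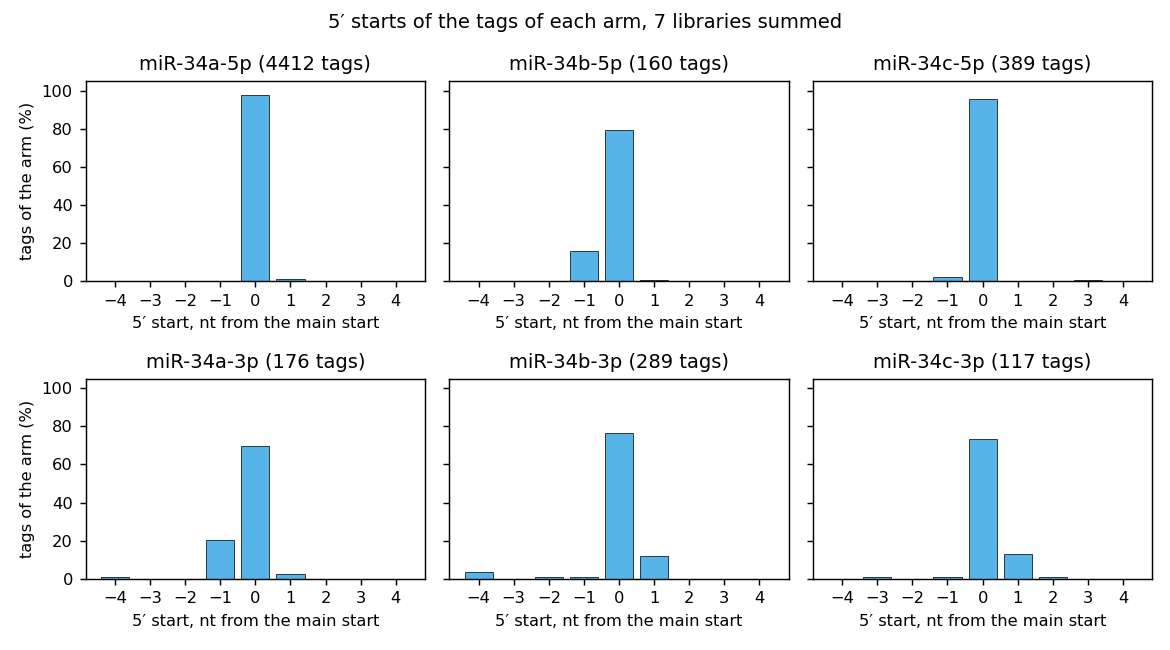
Share of each arm's tags (percent) by the position of the 5′ start relative to the main start of that arm, summed over 7 libraries. The bar at 0 holds 97.8% for miR-34a-5p and 95.6% for miR-34c-5p, against 69.9% to 79.4% in the other 4 arms, where a second bar stands 1 nt to the left (miR-34b-5p, miR-34a-3p) or to the right (miR-34b-3p, miR-34c-3p).

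In miR-34a-5p the 3′ ends varied more than the 5′ ends. The form of 22 nt that equals the annotated miR-34a-5p gave 2650 tags (60.1% of the arm), the forms of 23 nt and 24 nt with 1 and 2 further genome bases gave 724 and 270, and the form of 21 nt gave 183. The mean length of miR-34a-5p tags was 22.2 nt in the sum and lay between 22.1 nt and 22.4 nt in the 7 libraries. miR-34c-5p and miR-34b-5p were longer, with 53.7% of miR-34c-5p tags (209) and 63.1% of miR-34b-5p tags (101) in a single form of 23 nt, mismatched tags not counted. The most frequent tag of miR-34a-3p ended 1 base beyond the annotated end (99 of 176 tags), while those of miR-34b-3p (125 of 289) and miR-34c-3p (55 of 117) equalled the annotated sequence.

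Tags with a mismatch made up 7.59% of miR-34a-5p, close to the 6.79% over all placed tags. In the 6 arms 400 of 412 mismatched tags differed at base 15 or later, and 6 within bases 2 to 8. The most frequent substitutions in miR-34a-5p were G18A (90 tags), T20A (53 tags) and G17A (42 tags), each seen in all 7 libraries, with the reference base first and positions counted from 1 at the 5′ end of the tag. The tags are called from a colour-space platform, and whether these substitutions are in the RNA was not tested.

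All tags that carry GGCAGTG at bases 2 to 8 were then pooled, whatever their source, to describe which miRNAs carry the seed in each library. The pool held 4897 tags, or 119 CPM, of which miR-34a-5p supplied 88.1%, miR-34c-5p 7.56% and miR-34b-5p 2.59%. The next carriers were miR-1946b-3p with 44 tags (0.899%) and miR-1946a-5p with 30 tags (0.613%), against 6 tags of the 3 miR-449 miRNAs. miR-34a-5p supplied between 82.5% (day 3 of time course 1) and 90.8% (day 1 of time course 2). The pool ran at 115 CPM on day 1, 113 on day 2, 113 on day 3 and 111 on day 4 of time course 2. In time course 1 it ran at 175 on day 1, 74.4 on day 3 and 122 on day 4. It thus followed miR-34a-5p, being mostly made of it.

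The miR-449 miRNAs added almost nothing. Their 3 hairpins gave 136 tags, 18 for miR-449a, 36 for miR-449b and 82 for miR-449c, and the 5p arms of the mir-34 family gave 36.5 times as many. Only 3 tags on miR-449a-5p and miR-449c-5p began within 1 nt of the annotated start, out of 6 and 57 tags on these arms. The other tags began at scattered positions, 23 of them distinct in miR-449c-5p. Only miR-449c-5p had enough counts to be tested, and it did not pass in any of the 4 comparisons.

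Other miRNAs described as induced or matured more under p53 were examined as a list of 19, of which 18 had tags and miR-605 had 0. Of the 34 arms tested, 0 (0%) passed for day 4 over day 1, day 3 over day 1 or day 4 over day 3. In these comparisons 0% of all arms passed. Between the time courses 1 of the 34 (2.94%) passed, where 8.25% of all arms passed. The median log2 fold change of the 34 arms for day 4 over day 1 was 0.20, beside -0.05 over all 727 arms. For day 3 over day 1 it was 0.06, beside -0.04. Whether these medians differ from those of all arms was not tested. miR-145a, the most abundant miRNA of the list and a smooth muscle and cardiac miRNA, reached 130013 CPM, followed by miR-29a with 32930, miR-143 with 21422, miR-107 with 14260 and miR-103 with 11715. Tags that fit both miR-107 and miR-103, which are nearly identical, were split between them. miR-34a at 112 CPM stood far below all 5, which were taken as the most abundant of the list. It stood above miR-149 (41.6), miR-194 (31.0), miR-215 (4.95), miR-141 (1.83), miR-200c (1.56) and miR-605, and below all others of the list.

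The list member that passed between the time courses was miR-149-5p, with 487, 209, 317 and 402 tags on days 1 to 4 of time course 2, against 79, 70 and 35 on days 1, 3 and 4 of time course 1. All time course 2 counts were above all time course 1 counts, and the log2 fold change was 2.62 (SE 0.28, edgeR adjusted p = 2.47e-05). miR-194-3p passed in the fit with time course as a term only, where it was 1 of the 34 arms (2.94%), beside 3.03% of all arms for day 4 over day 1 and 1.51% for day 3 over day 1. It had 18 and 26 tags on day 4 (time courses 2 and 1), against 149 and 266 on day 1, with a log2 fold change of -2.94 (adjusted p = 0.000833) for day 4 over day 1. For day 3 over day 1 the value was -2.91 (adjusted p = 0.001). The other strand, miR-194-5p with 753 tags in the sum, had values of opposite sign in the fit without the time course term. They were 0.85 for day 4 over day 1 (edgeR adjusted p = 0.587) and 0.69 for day 3 over day 1 (edgeR adjusted p = 0.899). Arm counts include tags that begin away from the annotated start. For the mir-194-1 hairpin, the paper lists tags outside the annotated 3p miRNA as the larger part of the total. Their part in the counts of miR-194-3p was not tested.

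miRNAs described as repressed by p53, from the miR-17-92 and miR-106b-25 clusters that promote cell division, formed a second list of 9. Of 18 arms tested, 0 (0%) passed in the comparisons of days without the time course term, where 0% of all arms passed. The median log2 fold change of the 18 arms was -0.44 for day 4 over day 1, beside -0.05 over all arms. For day 3 over day 1 it was -0.16, beside -0.04. Whether these medians differ from those of all arms was not tested. miR-92-3p passed for day 4 over day 1 with time course as a term, at -1.09 (adjusted p = 0.0345), as 1 of 18 arms (5.56%) beside 3.03% of all arms. It had 14613 and 6702 tags on day 4 (time courses 2 and 1), against 27097 and 23207 on day 1. miR-20a-5p passed between the time courses, as 1 of 18 arms (5.56%) beside 8.25% of all arms, with 6197, 3554, 5096 and 3148 tags on days 1 to 4 of time course 2, against 16915, 6188 and 5052 on days 1, 3 and 4 of time course 1. Its log2 fold change between the time courses was -0.95 (SE 0.25, edgeR adjusted p = 0.0331). With both arms counted, miR-20a in time course 2 stood at 476 CPM on day 4 against 1010 on day 1. In time course 1 it stood at 1039 on day 4 against 2498 on day 1. The fitted log2 fold change of miR-20a-5p for day 4 over day 1 was -1.11 (SE 0.52, edgeR adjusted p = 0.527).

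By the shape of its level over the 7 libraries, miR-34a-5p was most like miR-1934-3p, miR-195a-5p, let-7g-3p, miR-676-3p and miR-331-5p among 464 other arms with at least 150 tags. Their centred log2 levels differed from that of miR-34a-5p by a root mean square of 0.20 to 0.24, beside a median of 0.50 over the 464 arms and 0.36 for the deviation of miR-34a-5p from its own mean. Of the 5, miR-1934-3p, miR-195a-5p and miR-676-3p were lowest on day 3 of time course 1, as miR-34a-5p was, and let-7g-3p and miR-331-5p on day 4 of time course 2. Among the family, miR-34b-5p came 47th in this order, miR-34b-3p 89th, miR-34c-5p 131st and miR-34a-3p 257th. This order is a description over 7 libraries that share depth and scaling.

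The cells carried the miRNAs of the cell type they are labelled with, at very unequal levels. All 6 cardiac muscle miRNAs (miR-1a, miR-133a, miR-133b, miR-208a, miR-208b and miR-499) had tags, and together they reached 94650 to 114301 CPM. Over the 7 libraries most of that sum came from miR-1a (65203 CPM), miR-133a (26108) and miR-133b (9367), with miR-208a at 2446. miR-208b (3.83) and miR-499 (8.36) were no higher than some miRNAs of other cell types, such as miR-9 of neurons (22.1). The 3 fibroblast miRNAs reached 22.3 to 38.4, the 5 blood miRNAs 45.7 to 72.8, miR-122 of hepatocytes 1.30 to 5.63, and the 2 neuronal miRNAs 18.6 to 35.9. miR-126a of endothelium reached 871 to 922 on day 4 and 613 to 917 on day 3, against 483 to 665 on day 1. Neither miR-126a-3p nor miR-126a-5p passed the test for day 4 over day 1 (edgeR adjusted p = 0.441 and 0.667). All tags on the miR-449 hairpins, whose miRNAs are those of multiciliated epithelium, reached 3.04 to 3.34 on day 4, against 2.94 to 3.22 on day 1. On their arms with an annotated start, few of these tags began near it. The part of other cell types in the levels of the mir-34 family was not tested.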

How the data were processed

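The small RNA fraction of HL-1 cultures was made into libraries and read on a SOLiD instrument. The authors aligned reads to miRBase hairpins and the mouse genome with the pipeline of the instrument's maker (mm9 in the submitters' processing notes), and deposited for each library the tag sequences with their raw count. Lines of equal sequence were summed, and 101 lines with no sequence (293 tags) were left out. Each distinct tag (79503, at least 16 nt) was placed on 1222 mouse hairpins (RefSeq, completed from GENCODE) by its best ungapped hit with at most 2 mismatches, and uncalled bases matched any base. In all 0.342% of tags were not placed and 2.12% were split between arms. In the family, 2 tags that fitted mir-34b and mir-34c equally were split in the counts and left out of the analysis of starts. Arms were tested with edgeR 4.0.16 (quasi-likelihood, TMM, filterByExpr, day as factor, 7 libraries, threshold 0.05 after Benjamini-Hochberg adjustment), with DESeq2 1.42.0 as an alternative. Shares of arms were tested with limma 3.58.1 on log2 ratios (pseudocount 0.5, hairpins reaching 10 tags in each library), and ratios within libraries by exact sign-flip permutation tests (scipy 1.17.1). Hairpins were folded with ViennaRNA 2.7.2. The tests across arms and hairpins were tested on simulated data.

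Replicate numbers name the time course. Deviations from the day means correlated between libraries of equal number (r = 0.360, 0.376 and 0.372 over 727 arms for the 3 pairs of days, each above 0.1), so the numbers pair the samples, and values with time course as a term are given where they change a call. Library depth was between 4931737 and 6877697 placed tags, and all intervals and limits for counts of 0 (3 counts) cover counting error only, since the tags carry no molecular identifiers. The libraries of a day are 2 cultures of the same line, so p-values of the comparisons of days measure the spread between these cultures. Each time course is a single culture, so in the comparison between time courses its days served as replicates. The p-values of that comparison and of the ratios within libraries do not measure the spread between cultures. Every arm of the 3 hairpins is given, list members that passed a test are named together with the 5 most abundant of the p53 list, and the 5 arms closest to miR-34a-5p were taken among arms with at least 150 tags. The members and lists were chosen with earlier results of these data known. Alternatives were DESeq2, library totals, no filter, exact matches, tags with 1 best hairpin, time course as a term, other pseudocounts, starts within 1 nt, tags of at least 18 nt and leaving out each library. Coordinates are those of GRCm38, not of the build used for the deposited mapping.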

Additional observations from a re-analysis of the deposited data

Results flagged for a closer look

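In 9 comparisons of single arms, the 2 time courses moved in opposite directions, and the difference between them was not tested because each day of a time course is a single library. For day 4 over day 1, the log2 change in time course 2 minus that in time course 1 was 1.43 for miR-34c-5p (0.35 and -1.08), -1.32 for miR-34c-3p (-0.50 and 0.83) and 0.31 for miR-34b-5p (0.01 and -0.30). For day 3 over day 1 it was 1.31 for miR-34b-5p (0.19 and -1.12) and 0.94 for miR-34c-5p (0.25 and -0.69). For day 4 over day 3 it was -1.31 for miR-34c-3p (-0.47 and 0.84), -0.998 for miR-34b-5p (-0.17 and 0.83), -0.85 for miR-34a-5p (-0.06 and 0.80) and 0.49 for miR-34c-5p (0.10 and -0.39). Behind the arms of mir-34b and mir-34c stand 11 to 102 tags a library.

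A set of 14 tags came from the loop of mir-34b, between the mature arms, and is contained in the 289 tags counted for miR-34b-3p. All begin on the last base of the annotated miR-34b-5p and are 18 to 21 nt long. The most frequent one, with 10 tags, is printed because it runs across the loop and 4 bases into miR-34b-3p, at chr9:51103592-51103610 on the minus strand of GRCm38.
mir-34b loop: tagtgcggtgctgacaatc
The tags appeared in 6 of 7 libraries (0 on day 4 of time course 1) and made up 3.12% of the hairpin (95% Wilson interval 1.87% to 5.17%), above the 3 counts that a count of 0 allows. With starts counted from 1 base before to 3 bases after the end of the 5p arm, the share was 3.34%, against a median of 0.0528% over 228 hairpins with both arms annotated, 9 of which were higher.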

How the results depend on the processing

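No member passed the threshold under any alternative of the abundance or arm share tests (345 member tests, lowest adjusted p = 0.230 for miR-34b-5p between the time courses without the day 2 library). The number of arms called changed more. Comparing day 4 with day 1, edgeR called 0 arms and DESeq2 14, and 22 were called with the replicate block (time course as a term). For day 3 over day 1 the numbers were 0, 9 and 11. For arm share, limma called 0 hairpins, 1 with no variance trend and 15 with the replicate block. Between the time courses the 60 calls became 33 with library totals and 39 with the day term left out. Leaving out 1 library gave 0 to 1 calls for day 3 over day 1, for day 4 over day 3 and for arm share, 0 for day 4 over day 1, and 3 (without day 3 of time course 2) to 71 calls between the time courses. The mean log2 ratio of miR-34b-3p over miR-34b-5p lay between 0.68 and 1.01 when 1 library was left out, with p = 0.0625 in 6 of 7 cases (exact permutation test). Counting only tags within 3 nt of the main start, chosen after seeing the data, gave 0.76 (exact permutation p = 0.0469). By unadjusted p the other ratios kept their side of the threshold.

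Near-zero changes reversed sign in 4 alternatives, namely miR-34c-3p for day 3 over day 1 with library totals (-0.011) and for day 4 over day 3 with exact matches (-0.088), and between time courses miR-34a-5p with no filter (0.035) and miR-34a-3p with the day term left out (-0.043). Leaving out 1 library reversed 29 member values and kept the sign of 160. These values, for day 4 over day 1, ranged between -0.38 and 0.016 (miR-34a-5p), -0.62 and 0.60 (miR-34b-5p), -0.58 and 0.19 (miR-34c-5p), and -0.18 and 0.81 (miR-34c-3p). For day 3 over day 1 they ranged between -0.83 and 0.30 (miR-34b-5p), -0.57 and 0.014 (miR-34b-3p), -0.43 and 0.39 (miR-34c-5p), and -0.31 and 0.71 (miR-34c-3p). For day 4 over day 3 they ranged between -0.17 and 0.77 (miR-34b-5p), -0.64 and 0.0082 (miR-34b-3p), -0.41 and 0.071 (miR-34c-5p), and -0.22 and 0.54 (miR-34c-3p). Between the time courses they ranged between -0.33 and 0.21 (miR-34a-5p), -0.067 and 0.29 (miR-34a-3p), and -0.49 and 0.21 (miR-34c-5p). The log2 ratio of 5p to 3p tags for day 4 over day 1 ranged between -0.25 and 0.57 (mir-34a), -0.18 and 1.34 (mir-34b), and -1.40 and 0.35 (mir-34c). The cause of these changes was not tested.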
